A study of Mus musculus with 48 samples.

Results

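The genes described here encode the interstitial matrix that mesenchymal cells lay down: the fibrillar collagen chains Col1a1, Col1a2, Col3a1, Col5a1 and Col5a2, the matricellular glycoproteins Thbs1 and Tnc, fibronectin (Fn1), the cross-linking enzyme Loxl1 and the membrane-bound protease Mmp14. They were chosen by name, and all 10 names were found among the 48321 rows of the RNA-seq table. Polyadenylated RNA was sequenced from 3 lines of male mouse R1 embryonic stem cells of strain 129SV, with 3 libraries per line. In the dKO line both Mll3 and Mll4, the histone methyltransferases encoded by Kmt2c and Kmt2d, were knocked out. In the dCD line, per the series text, both proteins were catalytically deficient, and the third line was wild type (WT). All 3 lines were grown in serum-free N2B27 medium with LIF, the MEK inhibitor PD0325901 and the GSK3 inhibitor CHIR99021, on poly-L-ornithine and laminin, and were plated on fibronectin before collection. That fibronectin was supplied as protein and is separate from the Fn1 RNA measured here. The labels name 1 line per genotype, so a clone and its genotype cannot be told apart, and they do not say whether replicates were separate cultures. Spread among replicates may therefore be technical, and the p-values speak only to that spread. The series title asks what Mll3 and Mll4 do in transcription apart from monomethylating H3K4, which is the question behind setting the knockout and the catalytic line beside WT.

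Fibrillar collagens are secreted as trimers of pro-alpha chains. Col1a1 and Col1a2 chains form type I collagen, Col3a1 chains form type III, and Col5a1 and Col5a2 chains form type V, a minor fibril component that sets where type I fibrils start. Fibronectin is laid down by embryonic stem cells and many other cells, and collagen fibrils assemble on it. Thrombospondin 1 and tenascin C are matricellular proteins: they bind matrix and receptors and change adhesion more than they bear load. Type I and III collagen are known as products of fibroblasts and other mesenchymal cells, and pluripotent cells make little of them.

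Depth ranged from 21090624 to 56249770 reads per library, recovered from the deposited TPM values (a level scaled by gene length, which can be compared between genes). The stem cell label was checked against 9 markers: Pou5f1 averaged 1450 ± 16.1 TPM in dKO, 1280 ± 18.5 in dCD and 1680 ± 41.3 in WT libraries (SD, n = 3 each), and the 9 markers summed to 5925 to 5980 TPM in dKO, 5367 to 5520 in dCD and 7378 to 7455 in WT. Of the targeted genes, Kmt2c measured 7.44 to 8.0 TPM in dKO, 25.26 to 28.56 in dCD and 19.68 to 21.93 in WT, while Kmt2d measured 80.51 to 84.84 TPM in dKO, 54.62 to 67.82 in dCD and 65.24 to 67.39 in WT. Kmt2d RNA was thus not lower in dKO, and the edited part of the gene is not given in the sources used here. The test was limma's, run on log2(TPM + 1) in a single fit of the 9 libraries, with Benjamini-Hochberg adjustment over 16179 genes. Fold changes on that scale understate the change of low genes.

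In dKO, 8 of the 10 genes were higher by at least 2-fold and none was lower by that much, where 6.01% of all tested genes were called at least 2-fold higher and 7.89% at least 2-fold lower. Whether Col5a1 counts as 2-fold lower in dKO depends on the scaling: its log2 fold change was -0.93 here, but -1.03 with median-ratio scaling, -1.01 with quantile normalization and -1.09 with voom, where 9 genes were 2-fold changed. In dCD, 6 of the 10 were at least 2-fold higher and none lower, where 4.62% and 2.32% of all tested genes were. At the adjusted p alone, 8 genes were higher and 2 lower in dKO, and 7 higher and 2 lower in dCD. That threshold passed 43.4% of all tested genes as higher and 28.4% as lower in dKO, and 28.9% and 29.5% in dCD. With median-ratio scaling, 49.9% of the genes called in dKO were higher in place of 60.4%. The 6 genes called 2-fold higher in both lines were Col1a1, Col1a2, Col3a1, Col5a2, Thbs1 and Tnc. Each of these was under 1 TPM in every WT library and entered the test only through the mutant lines, so they could enter it only by being higher there. The other 4 genes, Col5a1, Fn1, Loxl1 and Mmp14, were at least at 1 TPM in all 9 libraries. Both comparisons share the WT libraries. The median log2 fold change of the 10 genes was 1.93 in dKO and 1.84 in dCD, beside 0.096 and -0.009 over all tested genes. In a culture of many cells, more cells that make a transcript and more transcript per cell cannot be told apart.

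**Figure D1:**
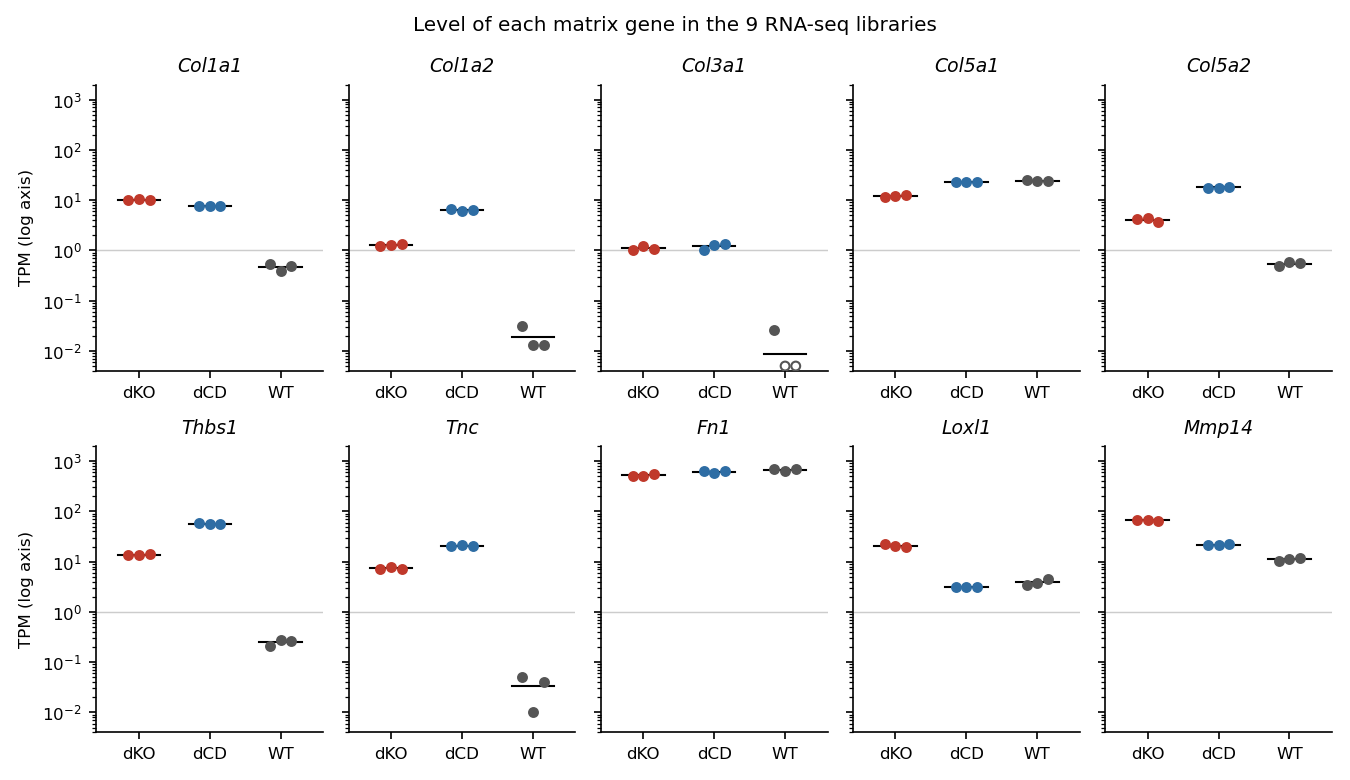
Level of each of the 10 genes in TPM on a log axis, with 1 point per library, 3 libraries per line (dKO, dCD, WT) and a black bar at the mean; open circles at the bottom mark a value of 0, and the grey line marks 1 TPM. In 6 of the panels, the plot shows WT points below the grey line and all mutant points on or above it, those of Col3a1 lying closest to it. Fn1 stays above 500 TPM in every library.

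The type I chain Col1a1 measured 10.1, 10.41 and 10.21 TPM in dKO, 7.53, 7.64 and 7.55 TPM in dCD, and 0.548, 0.383 and 0.479 TPM in WT. All dKO libraries lay above all dCD libraries, which lay far above WT, and the mean was 21.8 times that of WT in dKO and 16.1 times in dCD. The log2 fold change was 2.94 in dKO (SE 0.0632, limma adjusted p = 6.86e-11) and 2.55 in dCD (limma adjusted p = 6.03e-10). Its partner chain Col1a2 ordered the mutant lines the other way. Col1a2 measured 1.24, 1.27 and 1.34 TPM in dKO, 6.79, 6.19 and 6.38 TPM in dCD, and 0.031, 0.013 and 0.013 TPM in WT, where it rested on 3, 2 and 1 reads. Its log2 fold change was 1.16 in dKO (SE 0.0819, limma adjusted p = 4.33e-07) and 2.87 in dCD (limma adjusted p = 1.62e-09). In reads pooled over the 3 libraries of a line, Col1a2 was 70.4 times WT in dKO (95% interval 32.1 to 193) and 354 times in dCD (162 to 964). These exact intervals cover counting error only.

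The type III chain Col3a1 stayed low in all 3 lines. It measured 1.03, 1.23 and 1.09 TPM in dKO, 1.0, 1.31 and 1.37 TPM in dCD, and 0.026, 0 and 0 TPM in WT, where 2 reads were seen in all. Both mutant lines lay above WT, at log2 fold changes of 1.07 in dKO and 1.14 in dCD (SE 0.112 each, limma adjusted p = 9.69e-06 and 1.07e-05). Pooled reads put Col3a1 at 146 times WT in dKO, with a counting interval of 40 to 1210, and at 163 times in dCD, with an interval of 44.8 to 1350. The mutant lines overlapped each other, and the direct contrast did not pass (dKO minus dCD -0.07, 95% interval -0.32 to 0.17, limma adjusted p = 0.572).

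The type V chains behaved unlike each other. Col5a1, the most abundant collagen chain of the set in WT, fell in dKO: it measured 11.68, 12.36 and 12.86 TPM in dKO, 22.79, 23.32 and 23.19 TPM in dCD, and 25.01, 23.54 and 24.39 TPM in WT. The dKO libraries lay at about 0.506 times WT, or -0.93 on the log2 scale (SE 0.0418, limma adjusted p = 1.4e-08). For dCD the change of -0.07 did not pass, with a 95% interval of -0.16 to 0.02 (limma adjusted p = 0.177), though all dCD libraries lay below all WT libraries. Col5a2 measured 4.23, 4.33 and 3.65 TPM in dKO, 17.54, 17.84 and 18.29 TPM in dCD, and 0.482, 0.583 and 0.557 TPM in WT. None of the 3 lines overlapped another, and dCD stood 33.1 times above WT against 7.53 times for dKO. The log2 fold change was 1.72 in dKO (SE 0.0704, limma adjusted p = 6.90e-09) and 3.62 in dCD (limma adjusted p = 1.29e-10). In dCD this was the 18th largest rise of all tested genes.

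**Figure D2:**
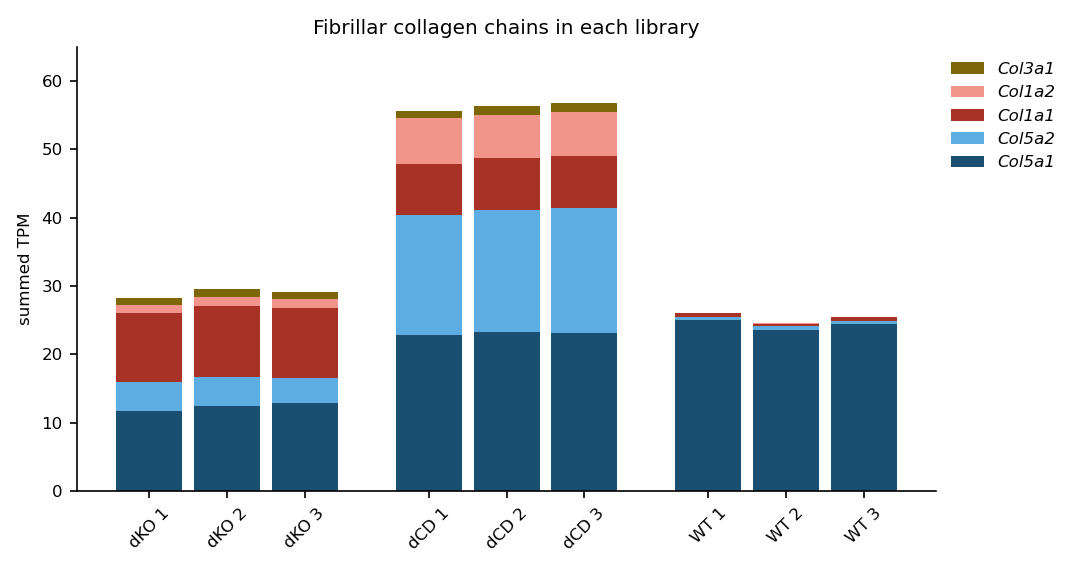
Summed TPM of the 5 fibrillar collagen chains in each of the 9 libraries, stacked by chain with the lines in the order dKO, dCD, WT. WT bars are nearly all Col5a1, dKO bars reach a similar height with a share of Col1a1, and dCD bars are about 56 TPM high with every chain but Col3a1 clearly visible.

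Summed over the 5 chains, collagen RNA came to 28.3, 29.6 and 29.2 TPM in dKO, 55.6, 56.3 and 56.8 TPM in dCD, and 26.1, 24.5 and 25.4 TPM in WT. The makeup of that sum differed more than its size between dKO and WT. Col5a1 made up 41.3 to 44.1% of it in dKO and 40.8 to 41.4% in dCD, but 95.8 to 96.0% in WT. The ratio of Col1a1 to Col1a2 was 8.16, 8.2 and 7.6 in dKO and 1.11, 1.24 and 1.18 in dCD; in WT it was 17.7, 29.3 and 37.9, with at most 3 reads of Col1a2 behind each. The ratio of Col5a1 to Col5a2 was 2.76, 2.85 and 3.52 in dKO, 1.3, 1.31 and 1.27 in dCD, and 51.8, 40.3 and 43.8 in WT. Both chain ratios were thus lowest in dCD, without overlap with the other lines. These ratios are descriptions of RNA per length and were given no test.

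Thbs1 encodes thrombospondin 1, a secreted glycoprotein that binds integrins, CD36 and CD47 and can release active TGF-beta. It measured 13.65, 13.39 and 14 TPM in dKO, 58.0, 55.36 and 57.1 TPM in dCD, and 0.212, 0.28 and 0.259 TPM in WT. No line overlapped another, and pooled reads put Thbs1 at 53.6 times WT in dKO (counting interval 39.4 to 74.9) and at 223 times in dCD (164 to 311). The log2 fold change was 3.55 in dKO (SE 0.0459, limma adjusted p = 2.83e-12) and 5.53 in dCD (limma adjusted p = 5.52e-13), the 20th and the 4th largest rise of all tested genes.

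Tnc encodes tenascin C, a large glycoprotein of embryonic mesenchyme and healing wounds. It measured 7.13, 7.86 and 7.19 TPM in dKO, 20.62, 21.53 and 20.37 TPM in dCD, and 0.05, 0.01 and 0.04 TPM in WT, which rested on 3, 1 and 2 reads. Both mutant lines lay far above WT and dCD above dKO in every library. Pooled reads gave 255 times WT in dKO (counting interval 117 to 695) and 711 times in dCD (327 to 1940). On the log2(TPM + 1) scale the change was 3.02 in dKO (SE 0.0609, limma adjusted p = 4.51e-11) and 4.40 in dCD (limma adjusted p = 2.08e-11). With a pseudocount of 5 the values were 1.30 in dKO and 2.36 in dCD, with one of 0.1 they were 5.82 and 7.30, and with voom on the recovered reads 7.72 and 9.31.

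Fn1 was the most abundant of the 10 genes in every line. It measured 514.16, 500.01 and 546.72 TPM in dKO, 626.1, 589.18 and 637.78 TPM in dCD, and 685.88, 649.36 and 690.62 TPM in WT. It fell in dKO by 0.38 on the log2 scale (SE 0.0403, limma adjusted p = 1.16e-05), the dKO libraries lying below all others. In dCD it fell by 0.13 (limma adjusted p = 0.0192), a call that was lost without WT replicate 1 (limma adjusted p = 0.0602), WT replicate 3 (0.0641) or dCD replicate 2 (0.0731), and with no filter on low values (0.052). Fn1 made up 78.3 to 80.2% of the summed TPM of the 10 genes in dKO and 78.9 to 79.9% in dCD, against 94.2 to 94.4% in WT. Without Fn1 the other 9 genes summed to 140, 139 and 135 TPM in dKO, 159, 157 and 160 TPM in dCD, and 40.4, 39.8 and 42.1 TPM in WT.

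The remodelling enzymes were highest in dKO. Mmp14, a membrane-anchored metalloproteinase that cleaves fibrillar collagen and activates pro-MMP2, measured 68.08, 67.48 and 65.54 TPM in dKO, 21.2, 21.03 and 22.58 TPM in dCD, and 10.52, 11.21 and 11.77 TPM in WT. No line overlapped another, and the log2 fold change was 2.48 in dKO (SE 0.0445, limma adjusted p = 2.15e-11) and 0.89 in dCD (limma adjusted p = 7.44e-08). Loxl1, a lysyl oxidase family member known for cross-linking elastin, measured 22.56, 20.33 and 19.29 TPM in dKO, 3.09, 3.19 and 3.18 TPM in dCD, and 3.5, 3.77 and 4.57 TPM in WT. It rose in dKO by 2.14 on the log2 scale (SE 0.0847, limma adjusted p = 5.28e-09). In dCD it was lower by 0.25 (limma adjusted p = 0.0291), with all dCD libraries below all WT libraries. That call was lost without WT replicate 3 (-0.16, limma adjusted p = 0.0959), without any 1 of the 3 dCD libraries (0.0577 to 0.0718) and under 4 of the other settings (0.0513 to 0.064).

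**Figure D3:**
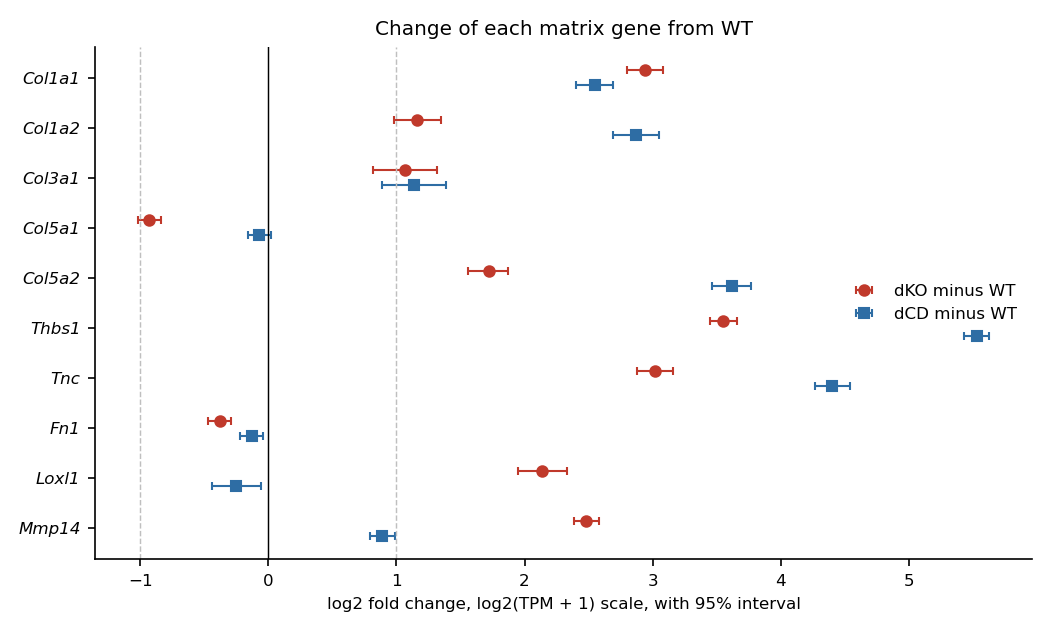
Log2 fold change from WT of each gene in dKO (red circles) and dCD (blue squares) on the log2(TPM + 1) scale, with 95% intervals from the fit; dashed lines mark a 2-fold change. Col1a2, Col5a2, Thbs1 and Tnc lie farther right in dCD, Loxl1 and Mmp14 farther right in dKO, and Col3a1 has overlapping intervals.

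The direct contrast of dKO with dCD tested whether the mutant lines differed. In it, 2 of the 10 genes were at least 2-fold higher and 4 at least 2-fold lower in dKO, where 3.6% and 7.36% of all tested genes were. At the adjusted p alone, 3 were higher and 6 lower, where 42.3% and 27% of all tested genes were. Loxl1 and Mmp14 were higher in dKO, by log2 differences of 2.38 (SE 0.0847) and 1.59 (SE 0.0445; limma adjusted p = 3.03e-09 and 5.36e-10). Thbs1, Col5a2, Col1a2 and Tnc were lower in dKO than in dCD, at -1.98, -1.90, -1.71 and -1.38 (limma adjusted p from 1.54e-10 to 2.93e-08). Smaller differences that passed were -0.86 for Col5a1, 0.39 for Col1a1 and -0.25 for Fn1 (limma adjusted p = 3.20e-08, 0.000278 and 0.000295). Within the type I pair, Col1a1 was therefore higher and Col1a2 lower in dKO than in dCD.

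Ordered by level within a line, Fn1 was followed by Mmp14, Loxl1, Thbs1, Col5a1, Col1a1, Tnc, Col5a2, Col1a2 and Col3a1 in dKO, and no gene overlapped the next over the 3 libraries. In dCD the order was Fn1, Thbs1, Col5a1, Mmp14, Tnc, Col5a2, Col1a1, Col1a2, Loxl1 and Col3a1, where only Mmp14 and Tnc overlapped. In WT the order was Fn1, Col5a1, Mmp14, Loxl1, Col5a2, Col1a1, Thbs1, Tnc, Col1a2 and Col3a1. There Col5a2 overlapped Col1a1, Tnc overlapped Col1a2 and Col1a2 overlapped Col3a1. Loxl1, the third of the 10 in dKO, was the ninth in dCD.

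Promoter windows were listed for 5 of the 10 genes in the RefSeq table used here (build GRCm38.p6, 250 bases before to 50 after an annotated start). They are shown because these genes went different ways: Col3a1, Col1a2 and Tnc were near 0 in WT and higher in both mutant lines, Mmp14 was highest in dKO, and Col5a1 was lowest in dKO. Capitals mark matches on either strand to the TATA box (letters TATAAA), the CCAAT box, the GC box (GGGCGG), the core of TEAD sites (CATTCC), the AP-1 site (TGANTCA) and the CArG box of SRF. The windows are chr1:45311288-45311587, plus strand for Col3a1, chr6:4505368-4505667, plus strand for Col1a2, chr4:64046966-64047265, minus strand for Tnc, chr14:54431348-54431647, plus strand for Mmp14 and chr2:27886175-27886474, plus strand for Col5a1, each printed 5′ to 3′ along the gene.
Col3a1: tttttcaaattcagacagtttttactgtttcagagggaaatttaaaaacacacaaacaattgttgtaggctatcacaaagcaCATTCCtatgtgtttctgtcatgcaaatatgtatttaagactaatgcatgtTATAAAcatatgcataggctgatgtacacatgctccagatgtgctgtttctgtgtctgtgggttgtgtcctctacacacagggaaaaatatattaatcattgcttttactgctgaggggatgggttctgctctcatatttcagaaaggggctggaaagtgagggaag
Col1a2: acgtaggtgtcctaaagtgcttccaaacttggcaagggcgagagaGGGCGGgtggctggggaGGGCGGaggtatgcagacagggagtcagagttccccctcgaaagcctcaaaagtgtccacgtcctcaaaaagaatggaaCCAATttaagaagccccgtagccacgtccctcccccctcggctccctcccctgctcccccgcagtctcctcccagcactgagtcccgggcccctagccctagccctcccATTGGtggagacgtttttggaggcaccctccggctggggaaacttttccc
Tnc: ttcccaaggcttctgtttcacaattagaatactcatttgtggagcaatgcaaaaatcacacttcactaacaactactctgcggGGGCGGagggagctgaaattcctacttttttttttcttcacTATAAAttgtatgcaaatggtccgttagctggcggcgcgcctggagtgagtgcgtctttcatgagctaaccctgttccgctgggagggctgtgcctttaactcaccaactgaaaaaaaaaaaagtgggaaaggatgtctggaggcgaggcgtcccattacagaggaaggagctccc
Mmp14: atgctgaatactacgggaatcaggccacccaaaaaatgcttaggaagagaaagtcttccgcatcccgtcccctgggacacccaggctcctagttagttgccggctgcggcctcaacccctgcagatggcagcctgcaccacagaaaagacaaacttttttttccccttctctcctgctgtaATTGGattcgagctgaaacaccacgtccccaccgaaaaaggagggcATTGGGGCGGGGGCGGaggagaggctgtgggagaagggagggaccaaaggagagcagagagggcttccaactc
Col5a1: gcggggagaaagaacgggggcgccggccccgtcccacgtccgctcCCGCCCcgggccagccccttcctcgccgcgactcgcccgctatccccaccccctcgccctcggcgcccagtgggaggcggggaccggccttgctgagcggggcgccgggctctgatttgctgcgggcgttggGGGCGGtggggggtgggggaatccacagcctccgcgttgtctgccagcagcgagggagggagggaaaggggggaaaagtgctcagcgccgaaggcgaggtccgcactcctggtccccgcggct

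The windows of Col3a1 and Col5a1 were the most unlike in base composition. The Col3a1 window held 37.7% G and C with no CpG, and the Col5a1 window 75% with 34 CpG, beside a median of 52.7% and 7 CpG over the 32851 windows of the table. TATAAA occurred once each in Col3a1 (first base at -117 from the start) and Tnc (-126), and in 13.6% of all windows. It is a match of letters, and its use as a TATA box was not tested. CATTCC occurred in Col3a1 alone (-168) and in 14.7% of all windows. GGGCGG occurred in Tnc, Col1a2, Mmp14 and Col5a1 and in 35.7% of all windows, and CCAAT in Col1a2 and Mmp14 and in 37.4%. In Mmp14 a CCAAT match on the opposite strand overlaps a GC box. No AP-1 letters and no CArG box were found in these windows, where 7.81% and 1.63% of all windows hold them. Tnc has a further window at a start downstream of the one shown, with the same TATAAA and GGGCGG letters.

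The wider matrix pathway was read from 9 lists with 140 names, of which 139 were in the table and 102 were tested. In dKO, 12 of the 102 were at least 2-fold higher and 11 lower (11.8% and 10.8%), beside the 6.01% and 7.89% of all tested genes given above. In dCD, 26 were at least 2-fold higher and 1 lower (25.5% and 0.98%), beside 4.62% and 2.32%. At the adjusted p alone, 51 were higher and 28 lower in dKO (50% and 27.5%), near the 43.4% and 28.4% of all tested genes. In dCD 61 were higher and 24 lower (59.8% and 23.5%), beside 28.9% and 29.5% of all tested genes. These same shares of all tested genes are to be set beside the counts of each list below. The median log2 fold change was 0.15 in dKO and 0.32 in dCD. Col12a1, Col16a1, Lox, Wisp1, Fbln5, Efemp1, Mmp16, Tgfb2, Acta2, Dab2, Thbd, Foxa2 and Kdr, named below, were under 1 TPM in every WT library. They entered the test only through a mutant line, so they could enter it only by being higher there. The same held for P4ha3, P3h2 and Mfap4. Of the 26 genes at least 2-fold higher in dCD, Col12a1, P4ha3, P3h2, Lox, Wisp1, Fbln5, Efemp1, Mfap4 and Tgfb2 were such genes. Of the 12 in dKO, Mmp16 and Tgfb2 were. The 25.5% and 11.8% thus rest in part on genes admitted in this way, and the shares of all tested genes hold such genes too.

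**Figure D4:**
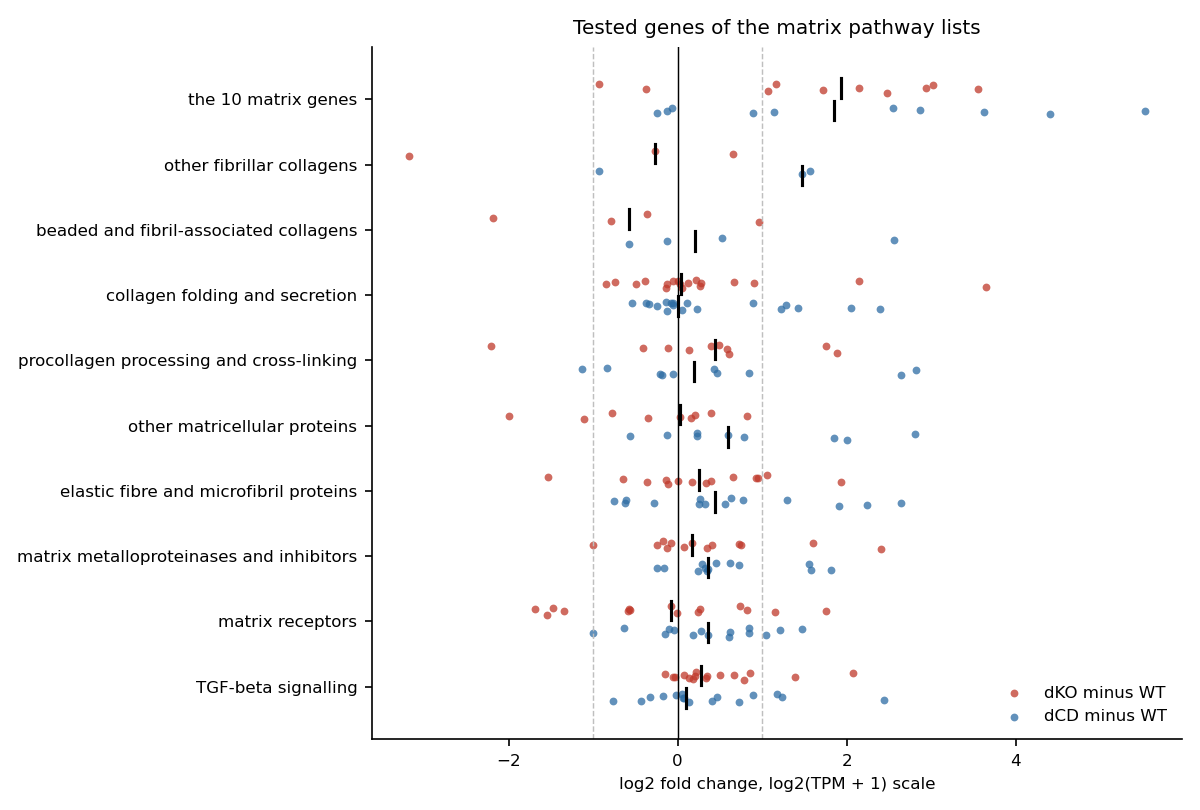
Log2 fold change from WT of each tested gene on the log2(TPM + 1) scale, in dKO (red, upper row of each list) and dCD (blue, lower row), for the 10 matrix genes and 9 pathway lists; black ticks are medians and dashed lines mark a 2-fold change. The medians of the pathway lists lie between -0.58 and 1.47, and points beyond 2-fold lie on both sides in dKO and mostly to the right in dCD.

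Of the other fibrillar collagens, 3 of 6 were tested. Col5a3, the third type V chain, fell in both lines, to 0.364 ± 0.178 TPM in dKO and 5.46 ± 0.186 in dCD, against 11.3 ± 0.121 in WT (SD, n = 3 each; log2 fold changes -3.18 and -0.93, limma adjusted p = 4.65e-10 and 9.39e-06). The cartilage collagen gene Col2a1 averaged 3.98 TPM in dKO, 16.9 in dCD and 5.02 in WT, at log2 fold changes of -0.27 and 1.57, and Col11a1 rose in both lines (0.65 and 1.47). Among beaded and fibril-associated collagens, 4 of 10 were tested. Col12a1, which binds type I fibrils, rose to 0.98 ± 0.0708 TPM in dKO and 5.01 ± 0.151 in dCD, against 0.0162 ± 0.00553 in WT. Col9a2 fell in dKO (-2.18) and slightly in dCD (-0.12), Col9a3 fell in both (-0.79 and -0.58), and Col16a1 fell in dKO (-0.36) and rose in dCD (0.52).

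Collagen chains are modified and folded in the endoplasmic reticulum before export, and 18 of 18 genes of that list were tested. In dKO 8 were higher and 5 lower, 2 and none of them by 2-fold, and in dCD 8 were higher and 6 lower, 5 and none by 2-fold. The dKO counts at the adjusted p lay near the shares of all tested genes, 43.4% higher and 28.4% lower. Fkbp10, a prolyl isomerase chaperone of collagen, averaged 60.5 ± 1.38 TPM in dKO and 24.7 ± 0.309 in dCD, against 3.89 ± 0.197 in WT (log2 fold changes 3.65 and 2.39, limma adjusted p = 1.12e-12 and 5.44e-11). P3h4, a partner of the lysyl hydroxylases, rose in both lines at 2.15 and 1.28. Serpinh1, the collagen chaperone HSP47, averaged 66.4 ± 0.537 TPM in dKO and 175 ± 3.30 in dCD, against 41.4 ± 1.69 in WT (0.67 and 2.05, limma adjusted p = 1.70e-08 and 3.25e-11). Crtap, a subunit of the prolyl 3-hydroxylase complex, fell in both (-0.49 and -0.34). The folding genes thus held some that were highest in dKO, as Mmp14 and Loxl1 were, and some highest in dCD, as Thbs1 and Tnc were.

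Of the procollagen processing and cross-linking genes, 10 of 13 were tested, with 7 higher and 3 lower in dKO and 5 higher and 2 lower in dCD. Bmp1, the protease that removes procollagen C-propeptides, averaged 13.6 ± 0.490 TPM in dKO and 26.7 ± 0.589 in dCD, against 2.94 ± 0.305 in WT (log2 fold changes 1.89 and 2.82, limma adjusted p = 1.10e-09 and 2.15e-10). Lox, the lysyl oxidase that cross-links collagen, averaged 0.572 ± 0.162 TPM in dKO and 5.38 ± 0.296 in dCD, against 0.0234 ± 0.0273 in WT (0.61 and 2.64). Its relative Loxl1, described above, went the other way between the mutant lines. The transglutaminase Tgm2 rose in both (1.76 and 0.84). Adamts14, which removes N-propeptides, fell in both (-2.21 and -1.13), Pcolce2 fell by 0.11 in dKO and by 0.84 in dCD, and Tll1 rose in dKO (0.58) with a value of -0.21 in dCD that did not pass.

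Of 19 other matricellular genes, 9 were tested, with 4 higher and 3 lower in dKO, none and 2 of them by 2-fold, and 6 higher and 1 lower in dCD, 3 and none by 2-fold. Sparc, a collagen-binding protein, averaged 63.0 ± 1.39 TPM in dKO and 438 ± 8.55 in dCD, against 254 ± 7.66 in WT (log2 fold changes -2.00 and 0.78, limma adjusted p = 4.68e-12 and 6.96e-09). The CCN family genes Cyr61 and Ctgf rose in dCD by 2.81 and 1.85. In dKO they rose by 0.20 and 0.16, beside a median of 0.096 over all tested genes. Wisp1 rose in both lines (0.82 and 2.00), as did Thbs3, a relative of Thbs1 (0.39 and 0.60). Smoc1 fell in dKO (-1.11) and rose in dCD (0.23). Nov fell in dKO (-0.78) and had a value of 0.23 in dCD that did not pass, and Spp1 fell in dCD (-0.56) with a value of 0.03 in dKO that did not pass.

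In the elastic fibre list, 14 of 17 were tested, with 7 higher and 3 lower in dKO and 9 higher and 4 lower in dCD. Fbn2, an embryonic fibrillin, rose in both lines at log2 fold changes of 1.93 and 2.64, and Fbn1 at 1.06 and 0.77. Efemp2, which brings lysyl oxidase to elastin, rose in dKO by 0.95 and in dCD by 0.25, and Efemp1 by 0.66 and 2.24. Fbln5 rose in dCD (1.91), with a value of 0.17 in dKO that did not pass. Emilin1 fell in both lines (-1.53 and -0.61), while Ltbp4 rose in dKO (0.40) and fell in dCD (-0.75).

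Of the metalloproteinases and their inhibitors, 13 of 20 were tested, with 6 higher and 2 lower in dKO and 11 higher and 2 lower in dCD. Mmp16, which is membrane-bound as Mmp14 is, averaged 4.85 ± 0.207 TPM in dKO and 0.341 ± 0.0878 in dCD, against 0.0966 ± 0.0329 in WT (log2 fold changes 2.41 and 0.29, limma adjusted p = 6.24e-09 and 0.0274). Mmp11 rose by 1.60 in dKO and 0.32 in dCD, and the proprotein convertase Furin, which activates pro-Mmp14, by 0.75 and 0.62. The membrane-bound Mmp15 fell in dKO (-1.0) and rose in dCD (0.36). The inhibitors Timp2 and Timp3 rose in dCD at 1.81 and 1.55 and had values of 0.17 and 0.08 in dKO that did not pass (limma adjusted p = 0.106 and 0.360). Mmp25 rose in both lines (0.35 and 1.58) and Timp1 fell in both (-0.24 and -0.16).

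Of 21 matrix receptors, 15 were tested, with 5 higher and 7 lower in dKO and 10 higher and 2 lower in dCD. The collagen receptor Ddr2 averaged 0.423 ± 0.0112 TPM in dKO and 8.98 ± 0.631 in dCD, against 2.6 ± 0.195 in WT (log2 fold changes -1.34 and 1.47, limma adjusted p = 1.04e-07 and 1.19e-07). Ddr1, the other collagen receptor kinase, and the laminin receptor chain Itga3 likewise fell in dKO (-0.58 and -1.69) and rose in dCD (1.04 and 0.84). Cd47, a receptor of thrombospondin 1, rose in both lines (1.76 and 0.62). Sdc4 fell in dKO (-1.55) and rose in dCD (0.28), and Itgb5 rose in dKO (0.24) and fell in dCD (-0.64). Sdc1 rose in dKO (0.82), with a value of -0.04 in dCD that did not pass.

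TGF-beta is a known inducer of collagen and fibronectin genes in fibroblasts, and 16 of 16 genes of its list were tested. In dKO 12 were higher and none lower, 2 of them by 2-fold, and in dCD 8 were higher and 4 lower, 3 and none by 2-fold. The ligand Tgfb2 averaged 5.21 ± 0.0975 TPM in dKO and 7.0 ± 0.352 in dCD, against 0.479 ± 0.0313 in WT (log2 fold changes 2.07 and 2.44, limma adjusted p = 1.23e-09 and 1.33e-09). The receptor Tgfbr2 rose in both lines (1.39 and 1.24). The mediator Smad4 rose in both lines (0.50 and 0.13), and the pathway repressor Ski rose in dKO (0.86) and fell in dCD (-0.17). Eng, a co-receptor, fell in dCD (-0.77), with a value of 0.07 in dKO that did not pass.

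Markers of other cell types that make such matrix were read beside these values. Smooth muscle markers, of which 7 of 9 were tested, were higher for 6 and lower for 1 in dKO and higher for 7 in dCD, and the 9 summed to 285.1 to 312.1 TPM in dKO and 1253 to 1347 in dCD, against 88.72 to 91.24 in WT. Acta2 and Tagln, its contractile markers, averaged 100 and 70.7 TPM in dKO, 520 and 468 in dCD, and 0.488 and 2.38 in WT. They made up most of the sum in both mutant lines. Myl9, Cnn1 and Tpm1 rose in both lines (2.44, 1.40 and 0.91 in dKO, 3.34, 2.92 and 2.52 in dCD). Des fell in dKO and rose in dCD (-1.0 and 1.10), and Smtn rose slightly in both (0.19 and 0.12). Myh11 averaged 0.297 TPM in dKO, 0.923 in dCD and 0.119 in WT, and Myocd 0.135, 0.79 and 0.0163 TPM. Myh11 and Myocd thus averaged under 1 TPM in every line and were not tested. Parietal endoderm markers, all 11 tested, were higher for 5 and lower for 2 in dKO and higher for 9 in dCD, and summed to 149 to 150 TPM in dKO and 529 to 546.7 in dCD, against 177.4 to 186.1 in WT. Col4a1 and Col4a2, basement membrane collagens, made up most of that sum in each line. Col4a1 averaged 51.3 TPM in dKO, 285 in dCD and 102 in WT, and Col4a2 averaged 40.1, 176 and 51.1 TPM. They were the markers lower in dKO (-0.98 and -0.34). Gata4, Dab2, Lamb1, Thbd and Foxa2 were higher there (0.66, 0.92, 0.98, 1.07 and 1.61). In dCD, 7 of the 11 were at least 2-fold higher and none lower by that much. Col4a1 and Col4a2 rose there by 1.47 and 1.77, and Dab2, Lamb1, Thbd and Foxa2 by 3.38, 1.10, 1.79 and 1.24. Gata4 and Sox7 had values of 0.13 and 0.15 in dCD that did not pass. Fibroblast and feeder markers, 4 of 11 tested, were higher for 1 and lower for 2 in dKO and higher for 3 and lower for 1 in dCD. They summed to 320.6 to 322.4 TPM in dKO, 321.2 to 334.8 in dCD and 380.4 to 395.6 in WT, mostly Vim, which fell in both mutant lines (-0.42 and -0.33). Twist1 rose in both (1.27 and 0.35), Thy1 fell in dKO (-1.18) and rose in dCD (0.45), and Pdgfrb rose in dCD (0.82) with a value of 0.14 in dKO that did not pass. Of the 7 untested ones, Lum and Fap were under 0.1 TPM in every library. Pdgfra averaged 0.607 TPM in dKO, 0.875 in dCD and 0.169 in WT, Prrx1 0.135, 0.529 and 0.0161 TPM in dKO, dCD and WT, and Dcn 0.141, 0.487 and 0.0968 TPM. Endothelial markers summed to 29.71 to 32.61 TPM in dKO, 61.5 to 63.47 in dCD and 68.06 to 70.77 in WT, with 3 of 5 tested. Of these, 2 were higher and 1 lower in dKO, and 1 was higher and 1 lower in dCD: Tek rose in both (1.67 and 0.60), Kdr rose in dKO (1.25) with a value of -0.03 in dCD that did not pass, and Pecam1 fell in both (-1.64 and -0.19). The part of any of these cell types in the matrix values was not tested.

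Likeness between genes was measured as the distance between log2(TPM + 1) values over the 9 libraries, each gene centred on its own mean, among 13006 named genes. With 3 lines, it rests mainly on 3 line means. Nearest to Col1a1 were Ptn and Igfbp5, nearest to Col1a2 were Ptgs2 and Esx1, and nearest to Col3a1 were Ppp1r3b and Kif1a. Col5a2 lay nearest to Jph2 and Usp17le, Thbs1 to Acta1 and Tnc, and Tnc to Anxa1 and Zfp36l3. Acta1, the skeletal actin gene, averaged 8.77 TPM in dKO, 71.2 in dCD and 0.143 in WT, at a distance of 1.17 from Thbs1, and Thbs1 and Tnc were 1.40 apart. Loxl1 lay nearest to Evx1 and Cyp7b1 and Mmp14 to Hoxa3 and Fignl2, all of them highest in dKO. Hoxa3 averaged 5.42 TPM in dKO, 1.20 in dCD and 0.214 in WT, at a distance of 0.190 from Mmp14. The nearest to Fn1 were Alkbh6 and Uhrf1bp1 and to Col5a1 Etnk1 and Cacnb3, at distances of 0.0680 to 0.0853.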

How the data were processed

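RNA-seq libraries of 3 lines (3 each) were grouped by title; the other 39 of the 48 samples were not analysed here. Per the submitters' processing notes, HISAT2, featureCounts and DESeq2 were used by the authors on build mm9, with no versions or roles; annotation, strand setting and multi-mapping treatment: not given in the sources used here. Reads of overlapping transcripts therefore cannot be told apart. Gm13372 overlaps Col5a1 and 8030451A03Rik overlaps Tnc in GRCm38; both stayed under 0.4 TPM on average. The deposited unit is TPM, as the authors named it, with a gene length per row. TPM multiplied by length came out in whole multiples of 1 step per library (100% within 0.01), which gave the reads.

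Genes with at least 1 TPM in at least 3 of 9 libraries (16179) were fitted with limma 3.58.1 in R 4.3.3 (lmFit, eBayes with a trend) on log2(TPM + 1), two-sided, at an adjusted p of 0.05; "2-fold" adds a log2 fold change of at least 1. The code was checked on simulated data. The genes changed there all had WT means above 1 TPM, so the check did not cover the 6 members under 1 TPM in every WT library. Same-numbered replicates did not deviate together (r from -0.049 to 0.042), so they were not paired. Members, lists and tests were chosen with earlier results of these data known. Every member was named, and from each list up to 4 called genes per line by adjusted p, with both directions where both occurred; likeness named the 2 nearest genes and position the nearest tested gene on each side. Some genes that this rule names are not reported here. Thbs3, Lum, Fap, Pdgfra, Prrx1, Dcn, Gata4, Sox7, Thbd, Smtn, Myh11, Myocd, Cnn1, Dppa3, P4ha3, P3h2 and Mfap4 were named after their values were seen. Summaries used Python 3.11.15 with pandas 2.3.3, numpy 2.4.6 and scipy 1.17.1, and plots with matplotlib 3.10.9.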

Additional observations from a re-analysis of the deposited data

Results flagged for a closer look

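Loxl1 differed between the mutant lines in direction. It was higher than WT in dKO (log2 fold change 2.14) and lower than WT in dCD (-0.25), and the direct contrast of dKO with dCD was 2.38 (limma adjusted p = 3.03e-09, all 3 dKO libraries above all 3 dCD libraries). The rise in dKO held in all 18 alternatives run, from 1.52 to 2.37, while the lower value in dCD lost its call in 8 of them.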

How the results depend on the processing

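Of the recomputed member values, 524 kept their direction and side of the threshold, 12 lost the call and 1 reversed. The lost calls were Fn1 (4) and Loxl1 (8) in dCD, as given above; the cause was not tested. The reversed value, Col3a1 in dKO minus dCD, which did not pass in the report either, was 0.02 under quantile normalization (limma adjusted p = 0.873). With a pseudocount of 5, 5 of the 10 genes were at least 2-fold changed in dKO in place of 8, pathway genes numbered 13 in dKO, 12 in dCD and 16 in dKO against dCD in place of 23, 27 and 33, and all tested genes 955, 374 and 771 in place of 2249, 1123 and 1774. With voom on recovered reads, 37 pathway genes were at least 2-fold changed in dKO, and all tested genes numbered 1859 in dCD and 2703 in dKO against dCD. In dCD, all tested genes numbered 1744 with a pseudocount of 0.1 and 695 at a minimum of 5 TPM, where Col3a1 is not tested. Median-ratio scaling gave 49.9% of called genes as higher in dKO in place of 60.4%, and 48.9% in dKO against dCD in place of 61.0%, and changed no call of the 10 genes at the adjusted p. At 2-fold it added Col5a1 as lower in dKO (-1.03), as did quantile normalization (-1.01) and voom (-1.09), for 9 genes in place of 8. The replicate number as a block, though the numbers did not pair the libraries, ended the call of Loxl1 in dCD (-0.25, limma adjusted p = 0.0513) and no other call of the 10 genes at the adjusted p. Depth limits Col1a2, Col3a1 and Tnc in WT, where 2 to 6 reads of each were seen over the 3 libraries.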

Other observations

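Genes next to the 10 on their chromosomes were read in the same way. Of 18 neighbouring tested genes, 1 was at least 2-fold higher and 2 lower in dKO, and none higher and 1 lower in dCD. Of all tested genes, 6.01% were at least 2-fold higher and 7.89% lower in dKO, and 4.62% and 2.32% in dCD. Counts this small cannot set the neighbours apart from all tested genes. Col3a1 and Col5a2 lie side by side on chromosome 1. Beside Col3a1, Gulp1, an engulfment adaptor gene, averaged 8.95 ± 0.447 TPM in dKO and 4.28 ± 0.433 in dCD, against 1.88 ± 0.280 in WT (SD, n = 3 each; log2 fold changes 1.79 and 0.87, limma adjusted p = 3.28e-08 and 1.63e-05). Beside Col5a2, Wdr75 was higher by 0.10 in dKO and 0.11 in dCD (limma adjusted p = 0.0292 and 0.0207). The median over all tested genes was 0.096 in dKO and -0.009 in dCD, so its dKO value was that of a typical gene. Rasgrp1, the neighbour of Thbs1, averaged 0.382 TPM in dKO, 4.39 in dCD and 4.97 in WT, and fell in dKO (-2.11, limma adjusted p = 1.73e-08) while Thbs1 rose. Stoml1, the neighbour of Loxl1, averaged 92.5 TPM in dKO, 31.3 in dCD and 84.6 in WT, and fell in dCD (-1.41, limma adjusted p = 3.56e-10).

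Beside Mmp14 on chromosome 14, Lrp10 rose in both lines with it, at 0.78 and 0.38 on the log2 scale, and Mrpl52 rose in dKO by 0.43 (limma adjusted p = 2.31e-07). Olfm1, beside Col5a1, fell by 0.85 in both lines (limma adjusted p = 7.38e-07 in dKO and 1.68e-06 in dCD).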
